A study of Homo sapiens with 6 samples.

Results

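The genes described here are the nuclear genes for respiratory complex III, complex IV and the ATP synthase, with cytochrome c. They were chosen by symbol: protein-coding rows of the deposited table named CYC1 or CYCS, or starting with UQCR, COX or ATP5. The rule found 58 of the 57819 genes in the table. By role they are 10 rows for complex III subunits, 16 for complex IV subunits, 9 for complex IV assembly factors, 5 for the F1 head of the ATP synthase and 11 for its Fo part and peripheral stalk. The others are cytochrome c (CYCS), the complex IV relative COX7A2L, 3 genes that carry an ATP5 symbol without being subunits, and 2 rows for intronless copies of COX6A1 and ATP5E. Symbols are those of the table, and several ATP5 genes have since been renamed (ATP5B is now ATP5F1B).

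RNA came from IMR90 ER:Ras cells, human lung fibroblasts of an established line that carry Ras fused to an estrogen receptor domain. All 6 libraries came from cells given 200 nM 4-hydroxytamoxifen (4OHT), which switches the fusion on and drives the cells into senescence, for 3 days. A scrambled siRNA (siSCR) had been given in 3 of them, the controls, and an siRNA that targets sin-lncRNA, a long noncoding RNA, in the other 3, the knockdowns. So both groups share the Ras fusion and the drug, and no untreated cells enter the comparison. The comparison asks what differs with this knockdown in cells given 4OHT. All 3 knockdown libraries carry the same siRNA name. Loss of sin-lncRNA therefore cannot be told apart from other effects of that siRNA. The targeted RNA, found in the table as RP4-530I15.6 through its RefSeq entry, stood at 3.70, 4.73 and 4.09 RPM (reads scaled to a library of 1000000) in controls and 0.493, 0.640 and 0.534 in knockdowns, in the direction of the labels.

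Complex III takes electrons from ubiquinol and passes them to cytochrome c, a small soluble carrier, and complex IV (cytochrome c oxidase) hands them on to oxygen. Both pump protons across the inner mitochondrial membrane, and the ATP synthase lets the protons flow back to make ATP. Each of these machines is a mosaic of a few subunits encoded in mitochondrial DNA and many encoded in the nucleus. Fibroblasts express the ubiquitous isoforms of the nuclear subunits, and several isoforms restricted to muscle, lung or testis also exist.

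Knockdown libraries held 22117324 to 27882280 reads in genes and were all shallower than the control libraries, with 30271192 to 50913672. All 10 fibroblast markers examined exceeded 1 RPM. Their summed level was 15735 to 16838 RPM in controls and 11442 to 11829 in knockdowns; COL1A1 and COL1A2 made up most of it in controls. The markers went both ways: 5 were lower (COL1A1, COL1A2, VIM, PDGFRB and DCN) and 4 higher (COL3A1 0.38, THY1 0.19, LUM 0.68 and FBN1 0.56 in log2 fold change; limma). Their part in the results was not tested. The 5 epithelial markers summed to at most 0.533 RPM and the 5 leukocyte markers to at most 0.427, with KRT5 at 0 reads in every library. The 3 endothelial markers summed to 1.70 to 1.90 RPM in controls and 2.29 to 2.71 in knockdowns, nearly all from VWF; their part was not tested either. In RNA from whole cultures, fewer cells with a transcript and less of it per cell cannot be told apart. The labels do not say that replicates were separate cultures, so p-values measure the spread between these libraries, which may be technical.

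The test took in 51 members, those whose normalized reads averaged 10 or more. Between controls and knockdowns 16 fell, 1 rose and 34 did not pass the threshold (limma, Benjamini-Hochberg adjusted p under 0.05 over all 19048 genes tested). Across all genes tested 23.5% were lower and 17.5% higher by the same rule, and across the 13002 protein-coding ones 26.4% and 22.2%. The members' 31.4% lower is close to the share among protein-coding genes, and the 1.96% higher is below it. Their median log2 fold change was -0.071, against -0.039 for all genes and -0.026 for protein-coding genes. All 3 knockdown libraries lay below all 3 controls for 17 tested members and above them for 4, where 28.5% and 22.6% of all genes did so.

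**Figure D1:**
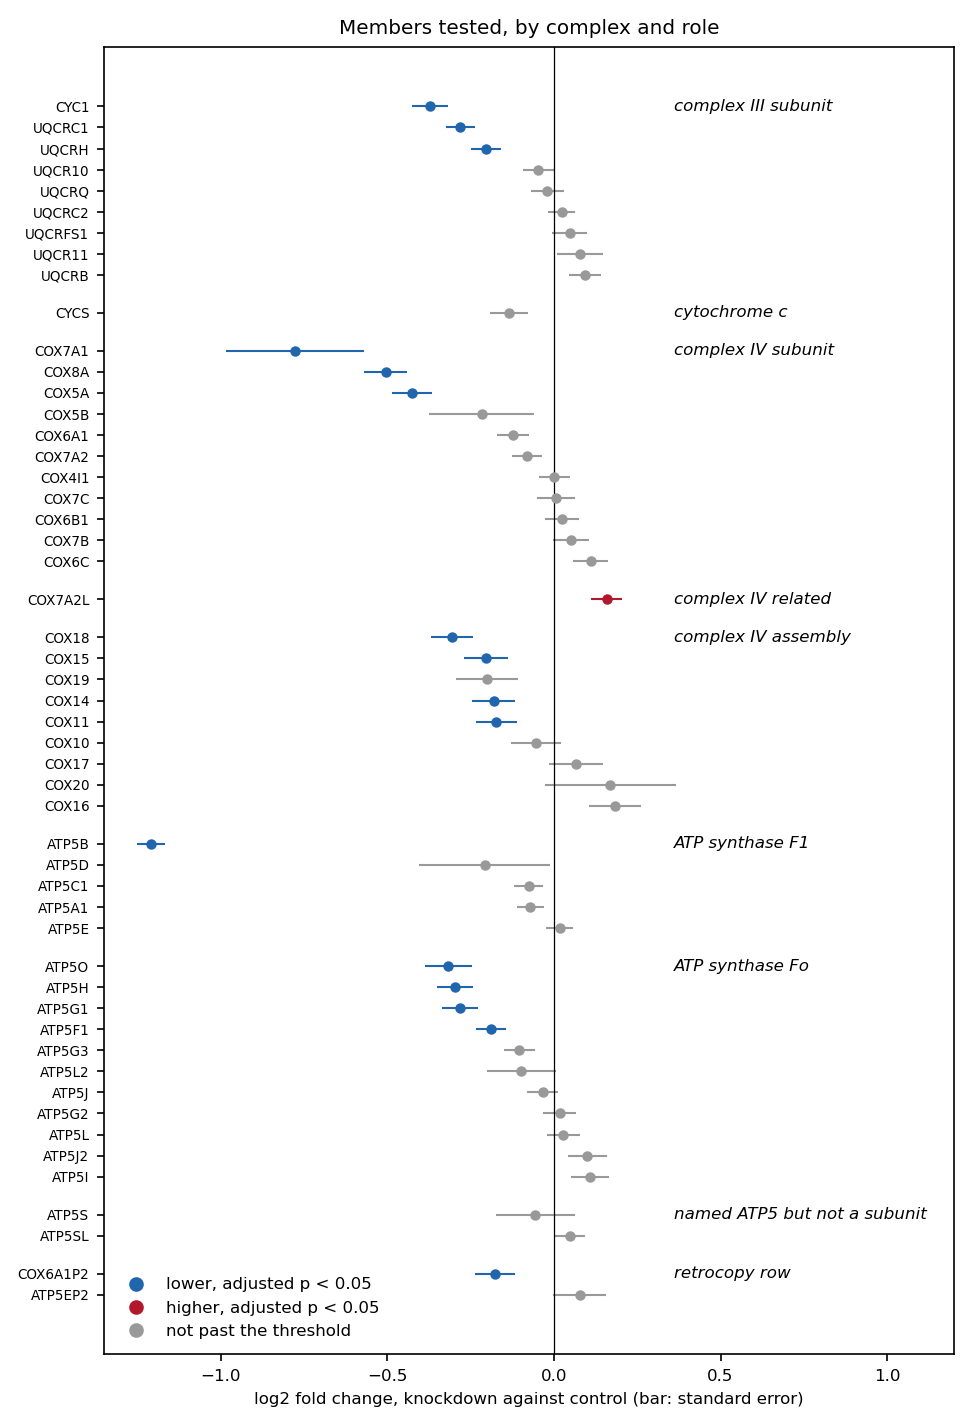
Log2 fold change of each tested member, knockdown against control (horizontal axis), with bars for the standard error and members grouped by complex and role (vertical axis). ATP5B lies at -1.21, apart from the other members, which run from -0.78 (COX7A1) to 0.18 (COX16).

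The change was uneven within each complex. One gene stood apart: ATP5B, which encodes the catalytic beta subunit of the ATP synthase, fell to 43.2% of control. Of the other members that fell, COX7A1 fell to 59.6% of control and the rest to between 70.6% (COX8A) and 88.5% (COX11). Summed over the 42 subunit rows, RNA stood at 4271 ± 87.0 RPM (mean ± SD, n = 3) in control libraries and 3671 ± 93.8 RPM in knockdown libraries, which is 86.0% of control. Without ATP5B the sum stood at 94.1% of control. All these sums are in RPM, which gives long transcripts more weight.

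**Figure D2:**
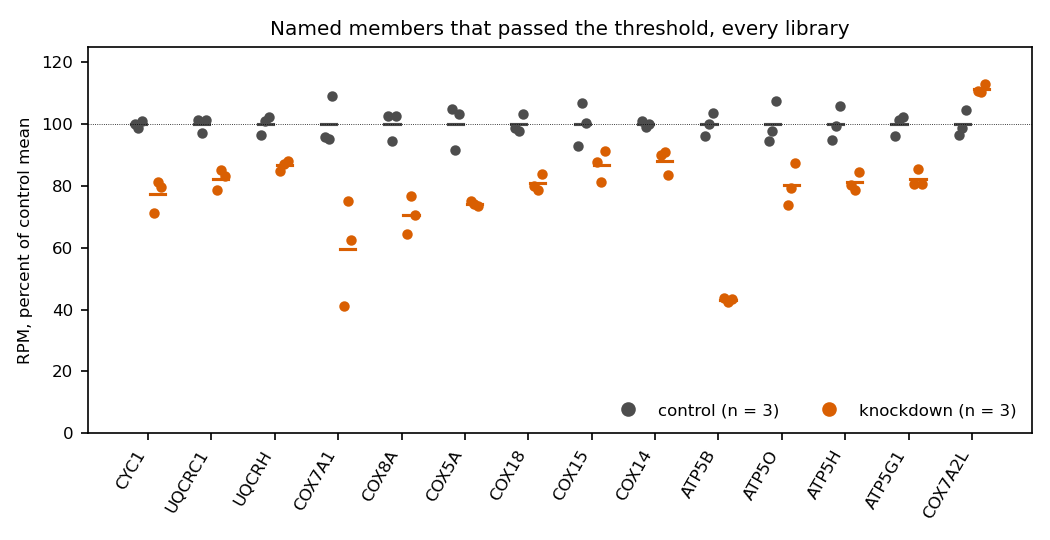
Level in every library as a percent of the control mean (RPM; vertical axis, from 0) for the 14 named members past the threshold, with a short line at each group's mean. The 3 knockdown points lie below the 3 control points for 13 genes and above them for COX7A2L. ATP5B shows the widest gap.

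Of complex III, 3 of 9 tested subunits fell (33.3%, beside 23.5% of all genes tested) and 0 rose (beside 17.5%). Their median log2 fold change was -0.020. The median was 0.023 after a correction for GC content and transcript length given further on, called the GC correction for short. The genes that fell were CYC1, UQCRC1 and UQCRH. CYC1 (on chromosome 8) encodes cytochrome c1, the heme subunit that delivers electrons to cytochrome c. It stood at 95.4, 94.1 and 96.2 RPM in control replicates 1, 2 and 3 and at 67.9, 77.5 and 75.8 in the knockdowns (log2 fold change -0.37, SE 0.055; limma, adjusted p = 0.00033). Every knockdown library was below every control.

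UQCRC1 (chromosome 3, 48636435 to 48648409 in hg19) encodes core protein 1, on the matrix side of the complex. Its level was 238, 228 and 238 RPM in controls and 185, 199.7 and 195 in knockdowns (log2 fold change -0.28, SE 0.044; limma, adjusted p = 0.0005). UQCRH (chromosome 1, 46769303 to 46782448), the hinge protein at the cytochrome c1 docking side, went from 85.4, 89.4 and 90.7 to 75.2, 77.0 and 78.0 RPM (log2 fold change -0.20, SE 0.045; limma, adjusted p = 0.0041). For both genes the groups did not overlap. The other 6 tested rows lay within -0.046 and 0.093 in log2 fold change. They include UQCRFS1, the Rieske iron-sulfur protein (log2 fold change 0.048, SE 0.052; limma, adjusted p = 0.501), and UQCRC2, core protein 2, which stood at 139, 142 and 143 RPM in controls and 141, 142 and 148 in knockdowns (log2 fold change 0.023, SE 0.041; limma, adjusted p = 0.688). UQCR11 has a pair of rows in the table, and the reads are all in 1 of them (0.079); the other held 0 reads. Summed over its rows, complex III RNA stood at 975 ± 17.3 RPM (mean ± SD, n = 3) in control libraries and 912 ± 30.0 RPM in knockdown libraries, which is 93.6% of control.

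Promoters of respiratory genes are known to hold sites for the factors NRF1, GABPA (an ETS factor) and YY1. RefSeq promoter sequences (GRCh38.p14) were matched to 42 of the 58 members by current symbol, and the 250 bases before the start were searched on both strands for 3 letter patterns: GCGC, any 2 bases and GCGC again (NRF1-like), CCGGAAG (ETS-like) and AAGATGG (YY1-like). The NRF1-like pattern was in 9 of the 42 (21.4%), against 7.16% of all 35116 promoters. For the ETS-like pattern the numbers were 11 of 42 (26.2%) and 8.52%, and for the YY1-like pattern 3 of 42 (7.14%) and 3.70%. The sets are unlike: members are protein-coding with a single promoter each, while the 35116 were not limited by gene type or to a single promoter per gene. Of the 11 matched members that fell, 3 held the NRF1-like pattern, 4 the ETS-like pattern and 0 the YY1-like pattern. Of the 27 tested ones that did not fall, 5, 7 and 3 did. ATP5B is not among the 42. A match describes the letters and does not show a bound site. One promoter is shown from each of complex III, complex IV, its assembly factors and Fo, from genes that fell and hold a pattern: the 120 bases up to the base before the RefSeq start, 5′ to 3′ on the gene's strand, with matched letters in capitals. They lie at chr3:48609647-48609766 (minus strand), chr11:63974500-63974619 (plus), chr4:73069717-73069836 (minus) and chr21:33915805-33915924 (minus).
UQCRC1: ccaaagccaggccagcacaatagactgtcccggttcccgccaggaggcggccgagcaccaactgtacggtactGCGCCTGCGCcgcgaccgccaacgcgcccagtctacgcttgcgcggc
COX8A: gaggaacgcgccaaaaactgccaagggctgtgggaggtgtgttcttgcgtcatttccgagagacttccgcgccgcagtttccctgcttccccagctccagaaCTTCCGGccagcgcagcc
COX18: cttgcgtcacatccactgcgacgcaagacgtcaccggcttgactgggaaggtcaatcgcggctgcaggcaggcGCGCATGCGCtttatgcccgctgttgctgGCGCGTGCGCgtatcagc
ATP5O: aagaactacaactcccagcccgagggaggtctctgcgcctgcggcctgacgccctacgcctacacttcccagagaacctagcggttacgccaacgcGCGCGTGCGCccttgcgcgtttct
UQCRC1 and ATP5O hold 1 NRF1-like match in this stretch and COX18 a pair, and COX8A holds the ETS-like pattern on the other strand. 

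CYCS (chromosome 7, 25159710 to 25164980), the gene for cytochrome c, did not pass the threshold. It stood at 94.1, 106 and 104 RPM in controls and 97.0, 90.4 and 89.3 in knockdowns (log2 fold change -0.14, SE 0.056; limma, adjusted p = 0.077), and the groups overlapped. It did pass without control replicate 1 (log2 fold change -0.19; limma, adjusted p = 0.015) or without knockdown replicate 1 (log2 fold change -0.17; adjusted p = 0.044).

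Of complex IV, 3 of 11 tested subunits fell (27.3%, beside 23.5% of all genes tested) and 0 rose (beside 17.5%). Their median was -0.080, or 0.013 after the GC correction. COX8A (chromosome 11, 63742079 to 63744015), the smallest membrane-spanning subunit in its ubiquitous form, stood at 128, 118 and 128 RPM in controls and 80.5, 96.0 and 88.4 in knockdowns (log2 fold change -0.51, SE 0.064; limma, adjusted p = 0.00012). COX5A (chromosome 15, 75212132 to 75230509), a matrix-side nuclear subunit, went from 53.8, 47.1 and 53.1 to 38.6, 38.1 and 37.8 RPM (log2 fold change -0.43, SE 0.059; limma, adjusted p = 0.00023). In both, all knockdown libraries lay below all controls, and the 3 COX5A knockdown values were within 1 RPM of each other.

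Tissue isoforms of complex IV were scarce or unread in these cells. COX7A1 (chromosome 19, 36641824 to 36643771), the isoform of heart and skeletal muscle, was scarce, at 2.61, 2.60 and 2.98 RPM in controls and 1.12, 2.05 and 1.71 in knockdowns (log2 fold change -0.78, SE 0.21; limma, adjusted p = 0.011). These values rest on 78 or more reads in each control library and 25 or more in each knockdown library. Without control replicate 3 the COX7A1 call was lost (log2 fold change -0.71, limma, adjusted p = 0.053), and it held in 17 of 18 alternative fits. With a pseudocount of 5 RPM its log2 fold change shrank to -0.22. An addition larger than the level itself brings that about in any case. COX7A2, its ubiquitous counterpart, stood at 91.0, 87.8 and 88.3 RPM in controls and 83.7, 82.0 and 87.0 in knockdowns (log2 fold change -0.080, SE 0.045; limma, adjusted p = 0.176). The ratio of COX7A1 to COX7A2 reads in the same library was 0.0307 ± 0.00269 in controls and 0.0193 ± 0.00580 in knockdowns (SD, n = 3; exact permutation test, two-sided p = 0.1, the smallest that 3 against 3 allows).

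COX4I1 (chromosome 16, 85832239 to 85840650), the general isoform of subunit 4, stood at 218, 212 and 218 RPM in controls and 207, 214 and 229 in knockdowns (log2 fold change 0.0010, SE 0.046; limma, adjusted p = 0.989), and the groups overlapped. COX4I2, the isoform known from lung and from low oxygen, held 0 reads in all 6 libraries, which allows up to 0.0596 to 0.134 RPM (3 reads; counting error only). COX6A2, the muscle isoform of COX6A1, and COX7B2 also held 0 reads in every library. COX6B2 and COX8C had at most 4 and 2 reads in any library. These 5 rows, the second UQCR11 row and the read-through gene ATP5J2-PTCD1 are the 7 members that were too low to test. The remaining subunits COX6A1, COX6B1, COX6C, COX7B and COX7C had log2 fold changes from -0.12 to 0.11 and did not pass. Summed complex IV subunit RNA stood at 906 ± 36.8 RPM (mean ± SD, n = 3) in control libraries and 846 ± 33.3 RPM in knockdown libraries, which is 93.4% of control.

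COX7A2L (chromosome 2, 42560686 to 42652228), known for joining complexes III and IV into supercomplexes, was the sole member that rose. It stood at 105, 107 and 114 RPM in controls and 120.2, 119.9 and 123 in knockdowns (log2 fold change 0.16, SE 0.045; limma, adjusted p = 0.017), with all knockdown libraries above all controls. The call was lost without knockdown replicate 3 (0.15; limma, adjusted p = 0.065). Per COX7A2 read there were 1.22 ± 0.0685 COX7A2L reads (mean ± SD, n = 3) in controls and 1.44 ± 0.0257 in knockdowns ( exact permutation test, two-sided p = 0.1).

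Of the complex IV assembly factors, 4 of 9 fell (44.4%, beside 23.5% of all genes tested) and 0 rose (beside 17.5%). Their median was -0.17, or -0.028 after the GC correction. COX18 (chromosome 4, 73921797 to 73935472), which helps insert the mitochondrially made COX2 subunit into the membrane, stood at 18.8, 18.6 and 19.7 RPM in controls and 15.2, 15.0 and 16.0 in knockdowns (log2 fold change -0.31, SE 0.063; limma, adjusted p = 0.0029). COX15 (chromosome 10, 101471601 to 101491857), an enzyme of heme A synthesis, went from 37.2, 42.7 and 40.1 to 35.1, 32.4 and 36.5 (log2 fold change -0.20, SE 0.066; limma, adjusted p = 0.03). COX14 (chromosome 12, 50505762 to 50514240), which acts with newly made COX1, went from 19.5, 19.1 and 19.3 to 17.4, 17.6 and 16.1 (log2 fold change -0.18, SE 0.063; limma, adjusted p = 0.041), and COX11, a copper insertion factor, had a log2 fold change of -0.17. In these 4 genes the groups did not overlap.

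The call of COX18 held when any library was left out. COX15 lost its call without control replicate 2 or 3 or knockdown replicate 1 or 2, and COX14 without any library other than knockdown replicate 2. Over the alternatives the adjusted p of limma ran from 0.012 to 0.108 for COX15 and from 0.034 to 0.756 for COX14. With single libraries left out, 1 to 3 assembly factors fell, with 2 left without control replicate 1, knockdown replicate 2 or knockdown replicate 3 and 1 left without control replicate 3 or knockdown replicate 1. COX10, the enzyme of heme O synthesis (-0.053), COX17, a copper chaperone (0.066), COX19 (-0.20), COX16 (0.18) and COX20 (0.17) did not pass. COX16 stood at 15.1, 13.1 and 14.1 RPM in controls and 15.6, 17.2 and 15.2 in knockdowns; no library of 1 group lay among those of the other, yet it did not pass (limma, adjusted p = 0.085).

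In the F1 head of the ATP synthase, 1 of 5 genes fell (20.0%, beside 23.5% of all genes tested) and 0 rose (beside 17.5%). ATP5B (chromosome 12, 57031959 to 57039798) stood at 658, 685 and 707 RPM in controls and 299, 291 and 296 in knockdowns (log2 fold change -1.21, SE 0.041; limma, adjusted p = 2.1e-08). The groups lay far apart, and each library held 6670 or more ATP5B reads. Among all 19048 genes tested this was the 104th largest fall, and among the 2095 genes with a control mean of at least 100 RPM the 4th. Its log2 fold change ran from -1.24 to -1.14 over 18 alternative fits, and it passed in each. The 18 include a fit whose scaling repeats that of the deposited values, so its agreement was set in advance.

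The alpha subunit, which alternates with beta around the F1 ring, did not pass. ATP5A1 stood at 461, 489 and 487 RPM in controls and 455, 446 and 467 in knockdowns (log2 fold change -0.071, SE 0.041; limma, adjusted p = 0.198), and the groups overlapped. Reads of ATP5B per read of ATP5A1 were 1.43, 1.40 and 1.45 in control replicates 1, 2 and 3 and 0.657, 0.652 and 0.634 in knockdown replicates 1, 2 and 3. This ratio within a library does not depend on scaling between libraries, and knockdowns lay at 45.4% of control (exact permutation test, two-sided p = 0.1, the smallest possible; Benjamini-Hochberg adjusted p = 0.16 over 8 such ratios). The rotor subunit gamma (ATP5C1, -0.076) and epsilon (ATP5E, 0.017) did not pass. Without ATP5B the F1 genes summed to 95.6% of control, and with it to 71.5%.

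**Figure D3:**
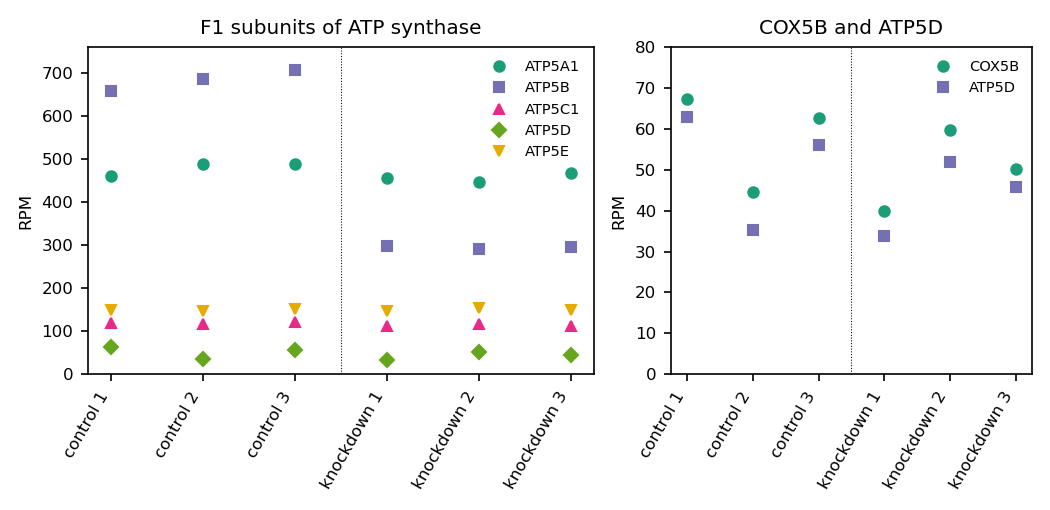
Level in each library (RPM; vertical axis from 0) of the F1 subunit genes at left and of COX5B and ATP5D at right, with controls and knockdowns on either side of the dotted line. In RPM, which is not adjusted for transcript length, ATP5B is above ATP5A1 in the 3 controls and below it in the 3 knockdowns. Per kilobase of transcript the mean of ATP5B was above that of ATP5A1 in both groups (372 and 82.4 in controls, 161 and 78.4 in knockdowns). That order hinges on the transcripts chosen, of 1839 bases for ATP5B and 5818 for ATP5A1. A shorter ATP5A1 transcript would raise its values. COX5B and ATP5D are both low in control replicate 2 and knockdown replicate 1.

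ATP5D, the delta subunit of the F1 stalk, and the complex IV subunit COX5B varied most between replicates among well-expressed members, and were picked out after their values were seen. ATP5D stood at 62.9, 35.2 and 55.9 RPM in controls and 33.8, 51.9 and 45.8 in knockdowns (log2 fold change -0.21, SE 0.20; limma, adjusted p = 0.433). COX5B stood at 67.2, 44.6 and 62.6 RPM in controls and 39.8, 59.7 and 50.2 in knockdowns (log2 fold change -0.22, SE 0.16; limma, adjusted p = 0.301). Both were lowest in knockdown replicate 1 and control replicate 2, and neither group lies apart from the other. The coefficient of variation over controls was 28.1% for ATP5D and 20.6% for COX5B, against a median of 3.28% for the tested members. The ratio of COX5B to ATP5D reads stayed between 1.07 and 1.27 in the 6 libraries.

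Libraries differed along GC content, and several members are GC-rich. As a set they are not: the tested members' median transcript GC content was 47.5%, against 48.1% for all genes tested. Their transcripts are short, with a median of 916 bases against 2190. The correction below removes a GC trend and a length trend, and the part of each was not tested. Of the 16 that fell, 9 have a transcript GC content over 50%. Members that did not fall also exceed it, among them ATP5D, UQCR11, ATP5G2, COX6B1 and COX4I1. The 2 shares were not compared. Among the tenth of tested genes with the highest transcript GC content (61.3% or more), the median deviation from each gene's mean on the log2 scale was 0.24, -0.095 and 0.13 in control replicates 1, 2 and 3. It was -0.23, 0.044 and -0.063 in the knockdowns. ATP5D has a GC content of 69.3%, CYC1 61.8%, UQCRC1 59.5% and COX8A 58.6%. After each library's trend on GC content and transcript length was removed, CYC1 was -0.17 (limma, adjusted p = 0.011), UQCRC1 -0.14 (limma, adjusted p = 0.0034), UQCRH -0.12 (limma, adjusted p = 0.023) and COX8A -0.32 (limma, adjusted p = 2.4e-05). COX5A was -0.28 (limma, adjusted p = 0.00049), ATP5G1 -0.14 (limma, adjusted p = 0.029) and ATP5O -0.21 (limma, adjusted p = 0.0084). ATP5B changed little, to -1.14 (limma, adjusted p = 2.2e-11). COX14 lost its call, at -0.028 (limma, adjusted p = 0.756), and the copy row COX6A1P2 turned to 0.020 (limma, adjusted p = 0.753).

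In that correction 16 members fell and 10 rose, against 16 and 1 on the deposited values (22.5% and 21.9% of all genes). The share of calls that were higher moved from 5.88% to 38.5%, and with quantile normalization to 20.0% (12 lower, 3 higher; 20.4% and 19.9% of all genes). Of the 16 members that fell, 14 also fell after the correction. The members' median log2 fold change became 0.0051. COX7A2L stood at 0.21 (limma, adjusted p = 0.00039). The other genes higher there were UQCRQ, UQCR11, COX4I1, COX6B1, COX6C, ATP5G2, ATP5I, ATP5J2 and ATP5SL, and ATP5A1 and CYCS were lower. The correction used long transcripts for ATP5A1 (5818 bases) and CYCS (4098), and how far their calls depend on that choice was not tested.

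**Figure D4:**
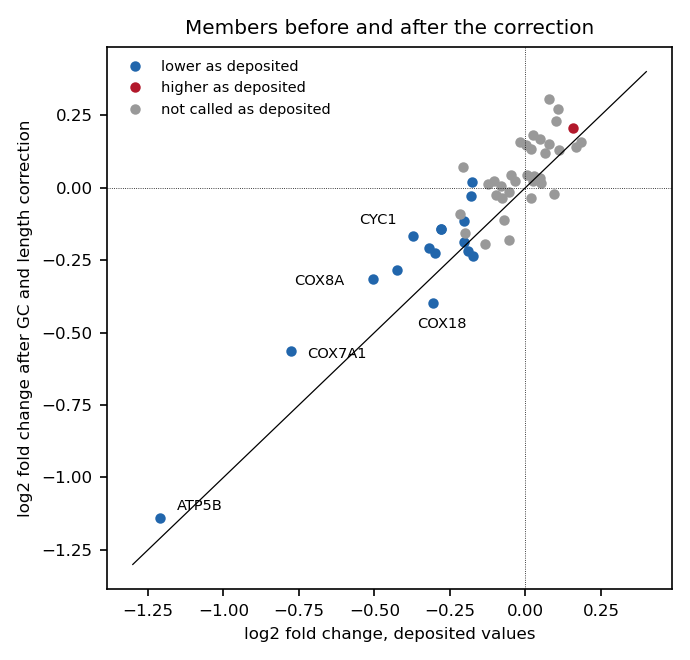
Log2 fold change of each tested member on the deposited values (horizontal axis) and after removal of each library's GC and length trend (vertical axis), coloured by the call on the deposited values, with the diagonal drawn. Most members lie above the diagonal, and ATP5B is the lowest on both axes.

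Of the Fo and peripheral stalk genes, 4 of 11 fell (36.4%, beside 23.5% of all genes tested) and 0 rose (beside 17.5%). Their median was -0.098, or 0.022 after the GC correction. Of the 4, 3 belong to the peripheral stalk, which holds the F1 head against rotation. ATP5O (chromosome 21, 35275757 to 35288284), the OSCP subunit on top of F1, stood at 54.3, 56.2 and 61.8 RPM in controls and 42.5, 45.5 and 50.3 in knockdowns (log2 fold change -0.32, SE 0.071; limma, adjusted p = 0.0042). ATP5H (chromosome 17, 73034958 to 73043080), subunit d, went from 74.1, 77.6 and 82.7 to 62.8, 61.6 and 66.1 (log2 fold change -0.30, SE 0.054; limma, adjusted p = 0.0012). ATP5F1, subunit b, had a log2 fold change of -0.19. The fourth stalk gene, ATP5J (subunit F6), had -0.034 and did not pass. For the 3 stalk genes that fell the groups did not overlap.

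The c subunit of the membrane rotor is made from 3 genes whose mature proteins are known to be the same. Of these, 1 fell. ATP5G1 (chromosome 17, 46970127 to 46973233) stood at 40.5, 42.6 and 43.1 RPM in controls and 33.9, 35.9 and 33.9 in knockdowns (log2 fold change -0.28, SE 0.053; limma, adjusted p = 0.0016). ATP5G2 (chromosome 12, 54026510 to 54071192) stood at 127, 131 and 135 RPM in controls and 124, 139 and 135 in knockdowns (log2 fold change 0.017, SE 0.051; limma, adjusted p = 0.82). ATP5G3 (chromosome 2, 176040986 to 176049335) stood at 215, 201 and 209 in controls and 186, 201 and 194 in knockdowns (log2 fold change -0.10, SE 0.045; limma, adjusted p = 0.091). ATP5G1 was the scarcest of the 3 in every library. Reads of ATP5G1 per ATP5G2 read were 0.320 ± 0.00324 in controls and 0.261 ± 0.0110 in knockdowns (SD, n = 3; exact permutation test, two-sided p = 0.1). The small membrane subunits e (ATP5I, 0.11), f (ATP5J2, 0.10) and g (ATP5L, 0.028) did not pass, nor did ATP5L2, a second gene for g (-0.098). Fo and stalk RNA summed to 94.0% of control.

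Intronless copies matter for reading these levels, because the submitters' processing notes name Bowtie2, an aligner that places reads without opening introns. COX6A1P2 and ATP5EP2 are rows of their own, protein-coding in the table and processed pseudogenes in GENCODE 29. COX6A1P2 held 72.6, 66.7 and 72.3 RPM in controls and 59.3, 67.1 and 60.8 in knockdowns (log2 fold change -0.18, SE 0.059; limma, adjusted p = 0.033), more than COX6A1 itself in every library (60.1, 56.7 and 58.1 in controls, 54.5, 52.8 and 53.3 in knockdowns). The COX6A1P2 groups overlapped. Over their 330 aligned bases the copy and COX6A1 share 326, and 49 of the 98 windows of 50 bases that cross an exon junction of COX6A1 occur unchanged in the copy. ATP5EP2 held 57.9, 46.2 and 52.1 RPM in controls and 51.5, 58.2 and 54.5 in knockdowns (log2 fold change 0.077, SE 0.079; limma, adjusted p = 0.472), and shares 150 of 156 bases with ATP5E. Shown for each parent is a coding window of 50 bases, the read length, centred on an exon junction (the 2 flanking bases in capitals) and found with the same letters in the copy. In GRCh38 (GENCODE 29) the COX6A1 window joins chr12:120438497-120438521 to chr12:120440454-120440478 (plus strand) and lies in the copy at chr6:37045081-37045130. The ATP5E window joins chr20:59032220-59032244 to chr20:59030405-59030429 (minus strand) and lies in the copy at chr13:27945267-27945316 (plus strand).
COX6A1: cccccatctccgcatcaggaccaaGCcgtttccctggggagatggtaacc
ATP5E: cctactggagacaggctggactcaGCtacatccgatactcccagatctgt
A read with either sequence may come from the spliced RNA of the gene or from the copy. In the genome the sequence is split by an intron in the gene and unbroken in the copy. An aligner that opens no introns would place it at the copy, so the copies' rows may hold reads of COX6A1 and ATP5E. How many reads were so placed was not tested.

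Other copies sit in 102 pseudogene rows with UQCR, COX, ATP5 or CYCS symbols, of which 42 were tested. Of these, 5 fell (11.9%, beside 23.5% of all genes tested) and 0 rose. ATP5BP1, the copy of ATP5B, stood at 27.6 to 31.2 RPM in the 3 controls and 13.8 to 14.4 in the 3 knockdowns (log2 fold change -1.05, SE 0.065; limma, adjusted p = 8.7e-07), beside -1.21 for ATP5B. The groups did not overlap. It is 86.1% identical to ATP5B over 1563 aligned bases, and 0 of 1790 windows of 50 bases match exactly. Exact matches do not cover reads placed with mismatches. Reads of ATP5BP1 per ATP5B read were 0.0428 in controls and 0.0476 in knockdowns (means, exact permutation test, two-sided p = 0.3). How many reads in the row of ATP5BP1 come from ATP5B was not tested, so its fall may not be separate. For COX20 the copies outweighed the gene, with 13.3 RPM in 2 copy rows against 1.23 in the gene's row in controls. COX20P1 fell (log2 fold change -0.38, SE 0.095; limma, adjusted p = 0.0081) while COX20 did not pass (log2 fold change 0.17, SE 0.20; limma, adjusted p = 0.529). With all copy rows added to their parents, subunit RNA stood at 86.7% of control.

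Levels between genes were compared per kilobase of 1 GENCODE 29 transcript each (RPKM), which depends on the transcript chosen. By this measure ATP5B ranked first in controls at 372 RPKM, not counting the copy rows, ahead of COX4I1 at 305, ATP5G3 at 247 and COX8A at 247. In knockdowns COX4I1 stood at 306, ATP5G3 at 230.3, COX8A at 174 and ATP5B at 161 RPKM. UQCRQ (170.5) and COX6B1 (169) also stood above ATP5B there. The ATP5-named genes that are no subunits did not pass: ATP5S had a log2 fold change of -0.056 and ATP5SL, an assembly factor of complex I, 0.047.

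Helpers of the same complexes that the symbols do not catch were examined from lists. Lower were 50.0% of the complex III list and 29.4% of the complex IV list, beside 23.5% of all genes tested and 26.4% of protein-coding ones. Higher were 0% and 5.88%, beside 17.5% and 22.2%. After the GC correction 22.5% of all genes were lower and 21.9% higher. These small lists were not tested as sets. Of 6 complex III assembly factors 3 fell and 0 rose, with BCS1L, which inserts the iron-sulfur protein, at -0.32, LYRM7 at -0.18 and C11orf83 (UQCC3) at -0.43. After the GC correction the list held 2 lower and 2 higher: BCS1L lost its call (-0.19; limma, adjusted p = 0.056) while TTC19 (0.19) and UQCC1 (0.13) passed. Of 17 further complex IV genes 5 fell and 1 rose. Their largest changes were COA6, a copper factor (20.4, 22.0 and 25.2 RPM in controls, 12.6, 13.6 and 14.4 in knockdowns; log2 fold change -0.73, SE 0.088; limma, adjusted p = 7.9e-05), COA4 (-0.50) and TACO1, a translation activator of COX1 (-0.47). COA5 was the one that rose (0.40). NDUFA4, a complex IV subunit with a complex I name, did not pass (0.10). After the GC correction there were 5 lower and 1 higher; SCO2 lost its call (-0.17) and CMC1 passed (-0.34).

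For the ATP synthase, 2 of 6 fell (33.3%, beside 23.5% of all genes tested). They were the assembly factor TMEM70 (-0.26) and the small subunit USMG5 (-0.23), while ATPIF1, the inhibitor protein, did not pass (-0.14). Complex II, which is wholly nuclear-encoded, had 3 of 8 genes lower (37.5%), namely SDHB (-0.34), ACN9 (now SDHAF3, -0.34) and SDHA (-0.17). The 6 subunits of complexes III, IV and V encoded in mitochondrial DNA had 0 lower and 1 higher (16.7%, beside 17.5% of all genes). The higher gene was MT-CYB (log2 fold change 0.16, SE 0.046, adjusted p = 0.015 by limma). MT-CO1, MT-CO2 and MT-CO3 had 0.073, -0.081 and 0.039, and their sum with the others stood at 102% of control. After the GC correction the ATP synthase list held 2 lower and 1 higher (C14orf2, 0.18) and the mitochondrial list 0 lower and 2 higher, with MT-CO3 (0.12) joining MT-CYB. Complex II then had 3 lower and 0 higher: SDHA (-0.096) no longer passed and SDHC (-0.16) did.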

How the data were processed

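Gene expression was measured by polyA RNA sequencing (50-base single reads) in 3 control and 3 knockdown libraries. The authors deposited 1 table of log2 values. Undoing an offset of 0.5 reads gave whole reads (within 0.01) for 100% of values, and the library sizes used equal totals times trimmed-mean (TMM) factors. The submitters' processing notes name Bowtie2, featureCounts and hg19; the annotation release and strand setting are not given in the sources used here. 36 members overlap another listed gene, so some of their reads may be the other gene's. The share over all genes was not taken. Among members that fell, the most-read overlapping gene held 0 reads in all for COX8A, 19 for ATP5B, 44 for COX14 and 187 for ATP5O. It held 1230 for ATP5G1, 1636 for COX15, 4058 for COX11, 4584 for ATP5F1 and 8340 for ATP5H. The knockdown columns were matched by replicate number and siRNA name.

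RPM are recovered reads divided by the effective library size and multiplied by 1000000. limma 3.58.1 (R 4.3.3; lmFit, eBayes with trend) was run, two-sided, on the log2 values of 19048 genes with a mean of at least 10 normalized reads, with Benjamini-Hochberg adjustment, after it was tested on simulated data. Fold changes of low genes are understated because of the offset. Alternatives were pseudocounts of 1 and 5 RPM, other filters, scalings and variance models, a GC and length correction, a replicate block and leaving out each library. Values in full are given for the 3 largest falls and rises that passed in each role group and for chosen isoforms and carriers; COX5B, ATP5D, COX16, UQCRC2, ATP5A1 and the copies were singled out after their values were seen. Members and lists were chosen with earlier results of these data known. The floor of 3 reads covers counting error only. Replicates differed by more than sampling noise in every pair.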

Additional observations from a re-analysis of the deposited data

How the results depend on the processing

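Over 18 alternative fits CYC1, UQCRC1, UQCRH, COX8A, COX5A, COX18, ATP5B, ATP5O, ATP5H and ATP5G1 kept their direction and passed in each. Among these fits, TMM scaling repeats the scaling of the deposited values, so its agreement was set in advance. COX15 lost its call in 7 and COX14 in 11. With the correction for GC content and length 10 members rose, among them 2 of complex III, 3 of complex IV and 3 of Fo, and 2 of F1 fell. Median log2 fold changes became 0.0051 for all members, 0.023 for complex III, 0.013 for complex IV, -0.028 for assembly factors and 0.022 for Fo. COX7A2 (0.0051) and ATP5G3 (0.022) changed sign without passing. Quantile normalization moved the complex III median to 0.0095 and gave 3 members higher, 1 each of complex IV and its assembly factors among them, and 1 assembly factor lower. Assembly factors called lower were 2 with no filter or with library totals, and 1 with eBayes without trend, at an adjusted p under 0.01 or with the replicate block. No member was higher with eBayes without trend or at an adjusted p under 0.01 (0 in both). The cause of these changes was not tested.

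With 1 library left out, the number of members called lower ran from 11 to 17 and higher from 0 to 2. Called lower were 3 in each case for complex III, 2 to 4 for complex IV, 1 to 3 for assembly factors, 1 to 2 for F1 and 4 in each case for Fo. Called higher were 0 to 1 for complex III and 0 to 1 for assembly factors. The complex III median ran from -0.043 to 0.018, turning positive without control replicate 3 or knockdown replicate 1. COX4I1 ran from -0.039 to 0.033 and ATP5G2 from -0.016 to 0.064, neither passing.

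Deviations from the group mean did not go together between libraries with the same replicate number (correlation -0.15, -0.18 and 0.065). They were taken within groups of 3 and also carry each library's GC trend. So they cannot show whether the numbers mark shared cultures or batches. The replicate block gave 12 members lower and 1 higher, with COX15, COX11, COX14 and COX6A1P2 no longer past the threshold. Depth limits the low isoforms: below 10 normalized reads no change could be tested, and the floor of 3 reads is 0.0596 to 0.134 RPM.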
